A study of Rattus norvegicus with 8 samples.

Results

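Stretches of chromatin in which several H3K27ac peaks were called in sham-operated rat sciatic nerve, and none in cut nerve, are described here. Peaks of the sham and the injury list were pooled, and peaks on a chromosome were linked into a domain where the next start lay at most 12.5 kb after the furthest end so far. Of the 16558 domains formed this way, 390 held 3 or more sham peaks and no injury peak. They are called sham-only domains below, and their 1580 peaks, called members, were 5.62% of the 28114 sham peaks (95% Wilson interval 5.36 to 5.90) among 60008 peaks in both lists. The domains were selected on the presence of sham calls and the absence of injury calls, so the absence of injury peaks inside a domain is the rule itself. No measure at hand was independent of that choice, so the values are descriptions and none was tested.

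Nerve came from male Sprague Dawley rats operated on at postnatal day 25 and taken at day 28, that is 72 h later. For the injury group the sciatic nerve of one leg was cut. The contralateral leg had a skin incision alone and gave the sham group, so the sham nerve comes from animals that also carried a cut nerve. The nerve distal to the operated site was used as whole tissue, and fewer cells of a type and less acetylation per cell cannot be told apart. The labels give 2 H3K27ac samples and 2 inputs per condition, and neither how many rats made up a sample nor whether legs of the same rat were paired is known from them.

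H3K27ac is an acetyl mark that the enzymes p300 and CBP place on histone H3 at active promoters and enhancers, and that deacetylases remove. Enhancers of genes that define a cell type often lie in rows of neighbouring acetylated elements, and linking neighbouring peaks by distance is the usual way to find such rows. Intact peripheral nerve is rich in Schwann cells that form myelin, in which the transcription factors SOX10 and EGR2 act at many enhancers. After a nerve is cut, Schwann cells of the distal stump leave the myelinating state and macrophages enter the nerve. None of these cells or factors was measured in the lists, and no domain could be tied to a gene, since no annotation or sequence of the files' build, Rnor_5.0, was used here. Domains are therefore named by position.

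The lists give 1 set of calls per condition and no peak heights. Replicates were not listed apart, so neither their spread nor the depth of a library is known. Intervals are 95% Wilson intervals that cover counting error over peaks or domains of these lists. Neighbouring peaks share their domain and are not independent, so the true uncertainty is larger. A missing injury peak is a peak that was not called, which is not a measured absence of acetylation.

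Sham-only domains were the smaller of the 2 one-sided sets. Of the 3041 domains with 3 or more sham peaks, 390 (12.8%) held no injury peak. Of the 3739 domains with 3 or more injury peaks, 831 (22.2%) held no sham peak. The injury-only set was thus 2.13 times the sham-only set in number of domains, while the injury list held 1.13 times as many peaks as the sham list. In covered length the lists differed too, with 16.9 Mb for injury and 13.2 Mb for sham. Among domains with a lone peak the ratio was 1.16, with 3200 injury-only and 2758 sham-only domains, and among those with 2 peaks it was 1.89, with 1251 and 663. The 2 lists were thresholded separately, and the part of depth or threshold in these ratios was not tested.

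**Figure D1:**
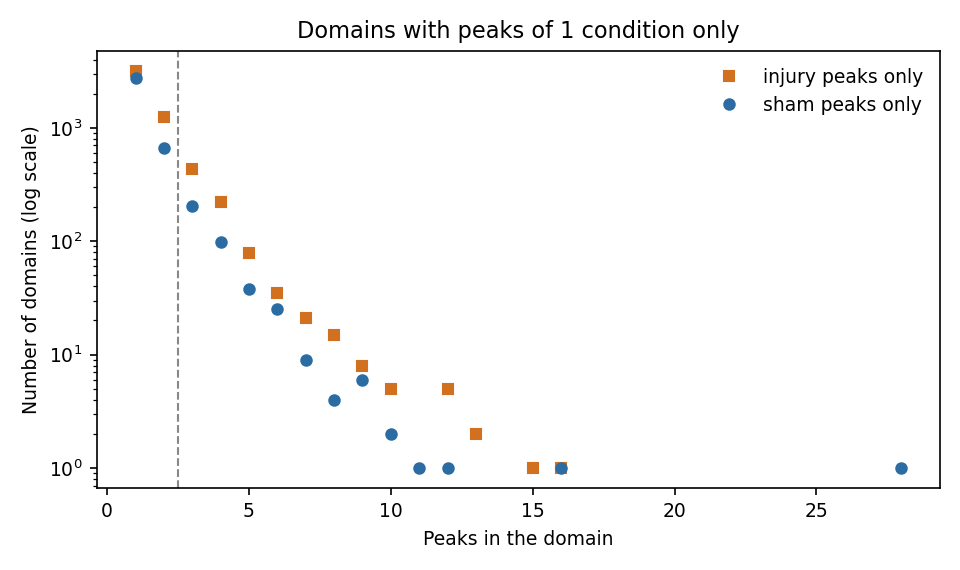
Number of domains (log scale) by the number of peaks they hold, for domains with sham peaks only (blue circles) and with injury peaks only (orange squares). Domains to the right of the dashed line hold 3 or more peaks; the sham-only domain with 28 peaks stands apart from the next, with 16, and at 16 peaks both marks show 1 domain.

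Most sham-only domains were at the lower limit of the rule. Of the 390, 204 held 3 sham peaks, 98 held 4, 63 held 5 or 6, 19 held 7 to 9 and 6 held 10 or more. The 88 domains with 5 or more peaks held 576 members, 36.5% of the total. Just outside the rule stood 663 domains with 2 sham peaks and no injury peak, and 396 with 3 or more sham peaks and 1 injury peak. The share of domains free of injury peaks went down with the number of sham peaks: 19.8% at 3 sham peaks, 15.3% at 4, 9.71% at 5 or 6, 5.25% at 7 to 9 and 1.68% at 10 or more. A domain with more peaks has more neighbours through which an injury peak can be linked to it. An injury peak can also join sham peaks into 1 larger mixed domain. The rule itself may thus contribute to that order, and its part was not tested.

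The domain with the most peaks, on chromosome 2 at 105285601 to 105364499, held 28. Its peaks covered 17.1 kb, or 21.6%, of a span of 78.9 kb, and 23 of them stood in the authors' deposited sham differential list. Its widest members, of 1999 and 1799 bp, and 4 more over 1 kb lay in the first 46700 bp of the domain. The last 5 members, from 46700 bp onward, were all 199 bp wide, the smallest width in the lists, with gaps of 5501 to 11901 bp between them, and all 5 were differential. The 5 members outside the differential list included the second widest, at 1799 bp. The nearest injury peaks lay 237 kb to the left and 2721.4 kb to the right. That stretch of 3036.8 kb without an injury peak held 42 sham peaks, 28 of them in the domain.

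The second domain by number of peaks lay on chromosome 1 at 108375601 to 108415099, with 16 peaks over 39.5 kb. Wide and differential members were partly different peaks here: of the 4 members over 1 kb, at 1099, 1299, 1399 and 1599 bp, none was in the differential list, whereas 9 of the 12 narrower ones were. The nearest injury peak was 2184.0 kb away. The domain sat in a stretch of 8722.3 kb that held 20 sham peaks and no injury peak, so 16 of those 20 were in this domain.

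The other 8 of the 10 domains with the most peaks held 9 to 12 members each and spanned 16.8 to 26.4 kb. Domains with equal numbers were ranked by covered length, which left out 2 more domains of 9 peaks, with 3 and 4 differential members. On chromosome 10 at 76994501 to 77020899, all 10 peaks were differential, in 3 compact runs split by gaps of 7301 and 9601 bp, with a last member 2701 bp further on. On chromosome 2 at 2665701 to 2682499, 6 of 9 were differential and stood next to each other, while the outer members were not. On chromosome 16 at 47190801 to 47208999, 7 of 11 were differential, including an adjacent pair of 1899 and 899 bp. On chromosome 11 at 3278901 to 3298799, 5 of 9 were differential, and the first 4 members in order were all among them.

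The remaining 4 of these domains had lower shares. On chromosome 4 at 184880201 to 184902099, 3 of 12 peaks were differential, and the widest, at 899 bp, was not. On chromosome 5 at 140047401 to 140066099, 3 of 10 were. Both other domains lay on chromosome 1, at 268886801 to 268907599 with 3 of 9, and at 8470001 to 8491699 with 2 of 9. Together the 10 domains held 123 members, of which 71 (57.7%) were differential. Without the domain of 28 peaks the count was 48 of 95 (50.5%).

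**Figure D2:**
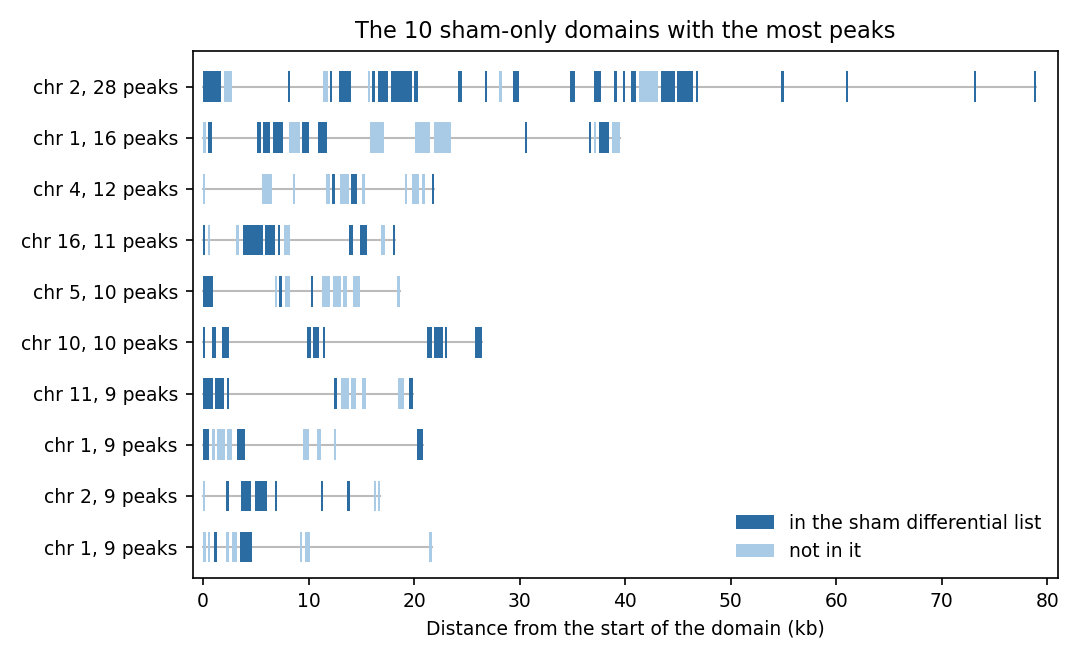
The 10 sham-only domains with the most peaks, each on its own line, with distance from the domain's start on the horizontal axis (kb). Dark bars are members in the sham differential list and light bars are other members; all 10 members are dark in the chromosome 10 domain, and 3 of 12 in the chromosome 4 domain.

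Member peaks were mostly short. Their median width was 299 bp (quartiles 199 and 499 bp), the same as over all sham peaks, and 36.5% were at the smallest width of 199 bp, against 36.8% of all sham peaks. The sham-only domains with fewer peaks held narrower ones: 45.7% of the peaks were at 199 bp in domains of 2 peaks and 63.0% in those of 1 peak. Peaks over 1 kb made up 7.47% of the members, 2.19% and 1.41% of the peaks in sham-only domains of 2 and 1 peaks, and 7.90% of all sham peaks. Mixed domains, with 3 or more sham peaks and at least 1 injury peak, had 10.3% over 1 kb. Within those, the sham peaks that met no injury peak had 2.76% over 1 kb, a lower share than among the members.

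A wide peak was present in a minority of the sham-only domains. In 89 of 390 (22.8%) at least 1 member was over 1 kb, in 14 at least 1 was over 2 kb, and in 20 every member was at the smallest width. The widest member of all, 5199 bp, began the domain on chromosome 2 at 161516601 to 161524099. After it, with gaps of at most 301 bp, came peaks of 199, 699 and 699 bp, the last 2 of them differential, and the domain had 90.6% of its 7.50 kb covered, the highest share of any. The next widest was a member of 3999 bp on chromosome 5, inside the domain of 7 peaks at 103575701 to 103597199, and it was not differential. Members of 2699 bp were found in a domain of 3 peaks on chromosome 3 (57615501 to 57635499) and in another, of 4 peaks, on chromosome 1 (126094201 to 126099299). The domain on chromosome 2 at 76230901 to 76243099 had members of 1099, 1799 and 2499 bp among its 6, and none of the 6 was differential.

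Other densely covered domains were compact. On chromosome 8 at 53774201 to 53778199, peaks of 1399, 1099 and 1099 bp lay 201 bp apart, which is the smallest gap in the list, and filled 89.9% of 4.00 kb. Similar shares were found for a domain of 4 peaks on chromosome 8 at 129621501 to 129626399 (87.7%), and for domains of 3 peaks at 163591101 to 163595099 of chromosome 5 (87.4%) and at 125273801 to 125277899 of chromosome 7 (85.3%).

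Most domains were less dense, and spacing varied widely among them. Members were a median of 601 bp from the next (quartiles 301 and 2551 bp), and 60.3% of the 1190 gaps were at most 1 kb. Per the labels the chromatin fragments were 0.5 to 2 kb long, so gaps of that size are no longer than the larger fragments. Whether members that close are separate acetylated sites cannot be told from the lists. When members at most 1 kb apart were grouped, 116 domains (29.7%) formed 1 group, 149 (38.2%) formed 2 and 125 (32.1%) formed 3 or more. At the other end, 142 domains (36.4%) contained a gap over 5 kb. The median span was 5.90 kb (quartiles 2.80 and 12.0 kb, range 1.10 to 78.9 kb), of which peaks covered a median of 29.9%. In injury-only domains with 3 or more peaks the median span was 7.0 kb, and in mixed domains with 3 or more sham peaks it was 14.7 kb. The mixed span is not a like measure, since it includes injury peaks, which can extend a domain or join distant sham peaks. Gaps between neighbouring sham peaks of mixed domains reached 40401 bp. Only 24 sham-only domains spanned over 20 kb.

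**Figure D3:**
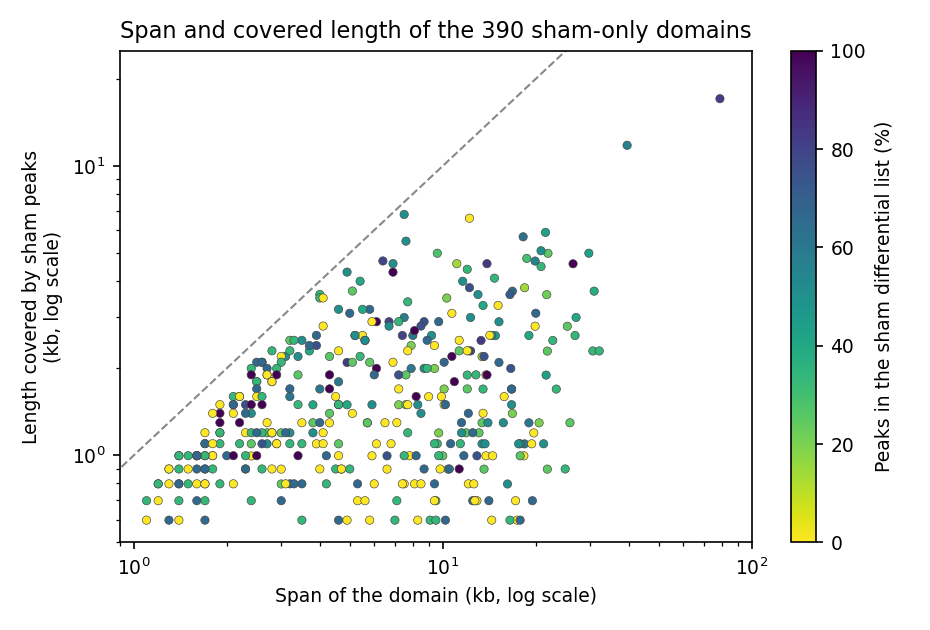
Span of each of the 390 sham-only domains against the length its peaks cover (both in kb, log scales), coloured by the percentage of its peaks in the sham differential list. On the dashed line the whole span would be covered; the point at the upper right is the domain of 78.9 kb with 17.1 kb covered.

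The authors' deposited sham differential list marks the peaks that they scored as different between the conditions. It held 615 of the 1580 members (38.9%, 36.5 to 41.4), all with the same borders, against 11.7% of all sham peaks and 21.8% of the sham peaks without an overlapping injury peak. The differential list stems from the same contrast as the rule, and almost none of its peaks overlap an injury peak, so a share above 11.7% follows in part from the choice of members. A closer comparison is with peaks whose domains also held no injury peak: 30.6% (28.9 to 32.4) in sham-only domains of 1 peak and 29.9% (27.5 to 32.5) in those of 2. In mixed domains with 3 or more sham peaks, 16.1% of the sham peaks that met no injury peak were differential. The members held 18.7% of the whole sham differential list.

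By domain size, the share was 35.6% at 3 peaks, 36.5% at 4, 41.8% at 5 or 6, 38.3% at 7 to 9 and 63.2% at 10 or more. The intervals of the first 4 classes overlap. The last class rests on 6 domains, and without the chromosome 2 domain of 28 peaks it was 54.2% (41.7 to 66.3).

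**Figure D4:**
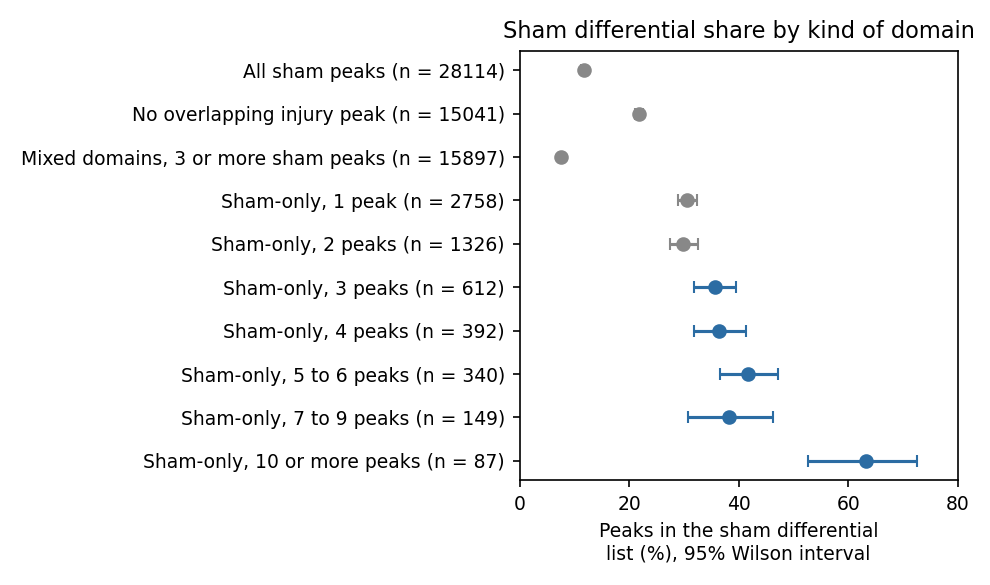
Percentage of sham peaks in the authors' deposited sham differential list, for all sham peaks, for other kinds of domain (grey) and for sham-only domains by size (blue), with 95% Wilson intervals that cover counting error only. The share is 11.7% over all sham peaks, 30.6% in sham-only domains of 1 peak and 63.2% in those of 10 or more.

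At least 1 differential member was present in 286 of the 390 (73.3%), against 28.6% of the 2651 mixed domains with 3 or more sham peaks, a number that the rule bears on. Exactly 1 was present in 104 domains and none in another 104, which held 360 members. The 182 domains with 2 or more differential members held 511 of the 615 (83.1%). Every peak was differential in 22 domains, 16 of them with 3 peaks. With 5 or more peaks there were 3 such domains: the one of 10 on chromosome 10 described above, one of 6 on chromosome 8 at 57390801 to 57397699 and one of 5 on chromosome 4 at 225145501 to 225151599. The chromosome 8 domain was dense, with peaks of 199 to 1099 bp covering 62.2% of 6.90 kb, and lay 555 kb from the nearest injury peak.

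In 12 of the 88 domains with 5 or more peaks no member was differential. After the chromosome 2 domain at 76230901 with its member of 2499 bp, those with the most covered length were on chromosome 11 at 47469701 to 47484799 (5 peaks, 3.29 kb), chromosome 2 at 191710601 to 191721299 (6 peaks, 3.09 kb) and chromosome 15 at 47564701 to 47584599 (6 peaks, 2.79 kb). The one with the least was on chromosome 3 at 130103101 to 130105499, where 5 peaks of 199 bp lay within 2.40 kb. Over all 12 domains, the nearest injury peaks were 14.1 to 162 kb away. These domains meet the rule on calls alone, without a peak that the authors scored as different.

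Place and width inside a domain went with small differences in the differential share. It was 37.4% for outermost members and 40.4% for inner ones, with overlapping intervals (34.1 to 40.9 and 37.0 to 43.8). In the 316 domains with a single widest member, that member was differential in 40.5%, and 41.0% of the others were. By width, the share was 35.9% at 199 bp, 39.2% above that and up to 500 bp, 45.3% up to 1 kb and 39.0% over 1 kb. Among all sham peaks without an overlapping injury peak it was 21.0%, 20.7%, 27.6% and 33.1% in the same width classes. The members stood above that set in each class, by the least over 1 kb, where the intervals overlap (30.7 to 48.0 and 28.7 to 37.8). That set includes the members themselves and peaks of mixed domains, so the difference follows in part from the rule. Sham-only domains of 1 and 2 peaks, at 30.6% and 29.9% over all widths, were not split by width.

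The distance from a sham-only domain to the nearest injury peak varied widely. Its median was 49.0 kb (quartiles 26.2 and 107 kb). The closest injury peak was 12501 bp away, 1 bp beyond the link distance and the shortest distance that the rule allows. An injury peak lay within 25 kb of 92 domains (23.6%), and within 15 kb of 21. None lay within 50 kb of 193 domains (49.5%, 44.6 to 54.4), against 54.8% of sham-only domains with 2 peaks and 54.9% of those with 1. None lay within 100 kb of 102, within 500 kb of 18 and within 1 Mb of 6. The differential share was 35.8% where the nearest injury peak was at most 25 kb away, 35.8% at 25 to 50 kb, 35.0% at 50 to 100 kb and 47.9% (43.3 to 52.6) beyond 100 kb. Without the domain of 28 peaks the last value was 45.6% (40.8 to 50.4). The differential share in sham-only domains of 1 and 2 peaks was not split by distance. Whether the higher share beyond 100 kb is particular to the members is therefore not known.

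**Figure D5:**
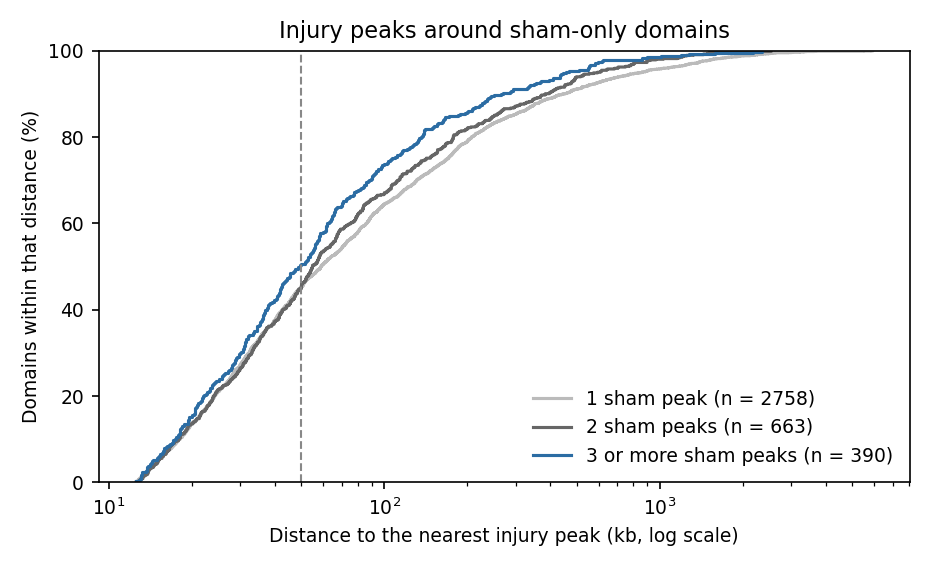
Cumulative percentage of sham-only domains by distance to the nearest injury peak (kb, log scale), for domains with 1, 2 and 3 or more sham peaks. The dashed line is at 50 kb, beyond which lie 49.5% of the domains with 3 or more sham peaks, 54.8% of those with 2 and 54.9% of those with 1.

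The 5 domains farthest from any injury peak were, apart from the chromosome 1 domain of 16 peaks, small. The farthest lay on chromosome 15 at 68828301 to 68833599, with 3 peaks covering 0.697 kb, none of them differential, and 2346.6 kb to the nearest injury peak. The other 3 lay on chromosome 6 at 24364301 to 24372999 (4 peaks, 1590.9 kb away), chromosome 19 at 3827201 to 3829899 (3 peaks, 1274.1 kb) and chromosome 18 at 67501801 to 67503399 (3 peaks, 1192.1 kb). Sham peaks continued around some of them: the stretch free of injury peaks held 17 sham peaks around the chromosome 6 domain and 11 around the chromosome 19 domain. It held 3 around the chromosome 18 domain, all of them members.

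The domains next to the sham-only domains along the chromosome were more often sham-only than domains at large, a difference that was not tested. Neighbours of other kinds of domain were not counted, so whether this is particular to the set is not known. Of the 780 sides, 40.0% faced a sham-only domain of any size, 39.1% a domain with both conditions and 20.9% an injury-only domain, whereas these kinds made up 23.0%, 45.1% and 31.9% of all domains. Sham-only domains stood on both sides of 71 of the 390, and injury-only domains on both sides of 28. With a limit of 100 kb, 50 sham-only domains with 3 or more peaks fell into 25 pairs, 22 of them with no injury peak between, and no 3 such domains lay in a row. The pairs with the most members held 11 each, on chromosome 14 at 3311201 to 3355099, with 6 differential, and at 123478501 to 123572199 of chromosome 7, with 5. On chromosome 8, the fully differential domain of 6 peaks formed a pair with a span of 68.3 kb, in which 8 of the 10 members were differential.

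By chromosome, members made up 2.62% of the sham peaks on chromosome 20 to 10.7% (9.38 to 12.3) on chromosome 5, beside 5.62% overall. Chromosome 18 followed at 9.55% (7.67 to 11.8) and chromosome 4 at 8.54% (7.19 to 10.1). Chromosome 5 also had as many sham-only as injury-only domains, 46 of each, and chromosome 18 had more, with 20 against 15, as did chromosome X, with 5 against 1. On each of the other 18 chromosomes the injury-only domains were more numerous. The share of members in the sham differential list was lowest on chromosome 20, at 23.8% of 21 members in 6 domains. It was highest on chromosome 19, at 51.6% of 64 members in 17 domains. On chromosome 5 it was 34.4%, below the 38.9% of all members. Both extremes rest on few domains, and the differential share of all sham peaks was not split by chromosome.

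In 396 domains with 3 or more sham peaks, 1 injury peak kept the domain outside the rule. Of these injury peaks, 311 (78.5%) overlapped a sham peak, and their median width was 299 bp. The sham peaks of these domains were differential in 19.6%, against 38.9% of the members. Of the 3290 peaks in the sham differential list, 3278 met no injury peak, so a lower share here follows in part from those overlaps. The largest was on chromosome 19 (54362501 to 54393599), where 20 sham peaks, 11 of them differential, covered 14.2 kb of 31.1 kb and met a single injury peak of 399 bp. Next came domains of 11 sham peaks on chromosome 16 (32591701 to 32617699), with 6 differential, and chromosome 17 (18389601 to 18422799), with 3, where the injury peak of 199 bp sat at the very border. By number of sham peaks and covered length, the chromosome 19 domain would have ranked second among the sham-only domains.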

How the data were processed

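Per the labels, H3K27ac chromatin immunoprecipitation with sequencing was done on fixed sciatic nerve (1% formaldehyde, 72 h after operation). Each sample had 300 µg of chromatin, in fragments of 0.5 to 2 kb, and 5 µg of antibody. Tools listed in the submitters' processing notes are Bowtie, HOMER and CASAVA 1.8.2, with build Rnor_5.0 and no stated roles. The caller, its thresholds and the handling of replicates and inputs were not given in the sources used here. Deposited by the authors were 4 lists of genome positions in bp with a running line number, and no counts, heights or p-values; per-sample depth is unknown.

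Blank lines were dropped and exponent notation read as whole numbers. Starts are printed 1-based, 1 higher than deposited, and widths are end minus start. Peaks were linked at 12.5 kb. Members had 3 or more sham and 0 injury peaks per domain, and a peak was differential when it shared at least 1 bp with a peak of the deposited sham differential list. Named domains are the 10 with the most peaks (equal numbers ranked by covered bp), the 5 with the most covered bp, the 5 farthest from injury peaks, the 5 with the largest covered share, the 5 with the widest peak, and those of 5 or more peaks with every or no peak differential (for the last, 5 of 12 are named). Also named are the 3 largest domains with 1 injury peak. Pairs of nearby domains and chromosomes were named after their values were seen. Members and rules were chosen with earlier results of these data known. Linking was tested on simulated data and against bedtools merge. Python 3.11.15, pandas 2.3.3 and scipy 1.17.1 were used. Gene lists set out earlier were not used, since they need an annotation of Rnor_5.0.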

Additional observations from a re-analysis of the deposited data

How the results depend on the processing

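No paired analysis was possible because the lists hold no value per replicate, which also kept replicates from being left out in turn. From 390 domains, 1580 members and a differential share of 38.9%, other settings gave the following. A link distance of 5 kb gave 445 domains with 1702 members (36.9%), 25 kb gave 313 with 1315 (39.1%) and 50 kb gave 213 with 958 (39.8%). At least 2 sham peaks gave 1053 domains with 2906 members (34.8%), and at least 5 gave 88 with 576 (44.1%). With only peaks wider than the smallest width in both lists there were 279 domains with 1075 members (35.6%). Allowing 1 injury peak gave 786 domains with 3169 members (29.3%). Requiring the same borders as a differential peak left the share at 38.9%. Chosen after seeing the data, asking for 3 or more groups, with sham peaks at most 1 kb apart counted as 1 group, kept 125 domains. Their 662 members are all peaks of these domains, counted before grouping, and 39.0% of them were differential. Asking for no injury peak within 50 kb, also chosen after seeing the data, gave 193 domains with 803 members (42.0%). The stricter and looser rules change the counts by construction; for the share, the cause was not tested. Depth could not be assessed.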

Other observations

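One member of a sham-only domain, on chromosome 2 at 210022801 to 210023099, overlapped a peak of the authors' deposited injury differential list, although no injury peak was called within 31.9 kb of its domain. The domain, at 210017501 to 210031199, held 4 sham peaks, of which 2 were in the sham differential list.

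The sham list carries a running line number that the labels do not explain. Cut into 5 equal parts of 20% of the lines, it held 16.9%, 22.0%, 21.0%, 21.3% and 18.8% of the members, from the first part to the last. For all sham peaks without an overlapping injury peak these shares were 14.2%, 18.1%, 20.7%, 22.4% and 24.5%. The members in the first part were in the sham differential list in 49.1% (43.1 to 55.0), and those in the last part in 34.7% (29.5 to 40.3). The differential share by part was not counted for other sham peaks. Whether this difference is particular to the members is therefore not known. A member from the first part was present in 197 of the 390 domains. In the chromosome 1 domain of 16 peaks the line numbers ran from 4199 to 26249.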
